A study of Mus musculus with 12 samples.

Results

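The epidermal growth factor (EGF) family was described here through 10 genes in healing skin wounds: the ligands Areg, Ereg, Hbegf, Tgfa, Btc, Epgn, Egf and Nrg1, and the receptors Egfr and Erbb2. The members were listed by name and found by mapping each Ensembl identifier to its symbol. All 10 were among the 54232 genes counted, had reads in each of the 12 libraries and passed the filter on low counts. Each library came from a dorsal wound of a male Lepr (db/db) mouse on the C57BLKS/J background, taken on day 10 after a 6 mm full-thickness punch. The labels give an age of 12.5 weeks, and the series text gives 12 weeks at wounding. In the TD group (5 libraries) the wound had only a Tegaderm film dressing. Patches with a nominal strain of about 30% covered the strain group (4 libraries), and patches without strain covered the no-strain group (3 libraries). All 12 libraries carry the leptin receptor mutation, so no group stands for healing in non-diabetic mice. It is not stated if several wounds share a mouse, so p-values measure only the spread between these samples, which may be partly technical.

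EGF family ligands are made as membrane-anchored precursors. Proteases of the ADAM group, chiefly ADAM17, cut them free, and they then bind and pair receptors of the ErbB family. EGFR binds most of the ligands studied here, ERBB3 and ERBB4 bind neuregulins, and ERBB2 binds none and serves as the preferred partner of the others. The paired receptors signal through RAS and the MAP kinases. In skin, keratinocytes are known to make several of these ligands and to respond to them by migrating and dividing while the epidermis closes a wound.

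Of the 8 ligand genes, 4 lie in 1 stretch of 375.5 kb on chromosome 5 (GRCm38, GENCODE M21 annotation). Epgn, which encodes epigen, spans 91027464 to 91035215 on the plus strand. Ereg, which encodes epiregulin, follows after 39.4 kb at 91074622 to 91093646, and Areg, which encodes amphiregulin, after another 46.0 kb at 91139599 to 91148432, both on the plus strand. Btc, which encodes betacellulin, lies 208.8 kb further on at 91357261 to 91402994 and is read from the minus strand. The other ligand genes are spread over the genome. Tgfa (transforming growth factor alpha) lies on chromosome 6 at 86195223 to 86275719, Egf on chromosome 3 at 129677565 to 129755316, and Nrg1 (neuregulin 1) on chromosome 8 at 31814551 to 32884029. Both receptors are on chromosome 11, Egfr at 16752203 to 16918158 and Erbb2 at 98412470 to 98437716.

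Areg and Epgn were called higher and their neighbour Btc lower in patched wounds, so the bases before their starts are shown, 250 for Areg and Btc and 197 for Epgn. They were taken from the RefSeq promoter table (GRCm38.p6), in which 7 of the 10 members had an entry (Ereg, Hbegf and Nrg1 did not), and stop before the first annotated exon. Each is written 5′ to 3′ on the strand of the gene, from chr5:91139349-91139598 (plus) for Areg, chr5:91027267-91027463 (plus) for Epgn and chr5:91402995-91403244 (minus) for Btc. Capitals mark the letters TGACGTCA, known as the cyclic AMP response element, and TATAAA, known from core promoters.
Areg: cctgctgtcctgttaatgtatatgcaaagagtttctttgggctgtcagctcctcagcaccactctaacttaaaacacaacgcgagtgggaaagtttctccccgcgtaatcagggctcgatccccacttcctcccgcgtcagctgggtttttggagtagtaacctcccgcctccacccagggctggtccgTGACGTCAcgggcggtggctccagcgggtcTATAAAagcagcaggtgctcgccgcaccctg
Epgn: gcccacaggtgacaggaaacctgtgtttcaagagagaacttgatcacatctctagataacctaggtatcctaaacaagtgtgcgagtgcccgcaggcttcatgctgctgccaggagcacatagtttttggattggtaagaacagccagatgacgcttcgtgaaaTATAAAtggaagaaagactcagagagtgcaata
Btc: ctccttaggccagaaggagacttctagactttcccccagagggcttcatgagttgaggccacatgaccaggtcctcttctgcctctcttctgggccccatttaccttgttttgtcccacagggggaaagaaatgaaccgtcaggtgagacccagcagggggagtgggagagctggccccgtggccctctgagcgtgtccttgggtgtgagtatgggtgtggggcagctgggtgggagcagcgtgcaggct
The Areg stretch holds TGACGTCA from 61 to 54 bases and TATAAA from 31 to 26 bases before the RefSeq start. The Epgn stretch holds TATAAA from 86 to 81 bases before its RefSeq start, and the Btc stretch holds none of the motifs searched. The matches do not overlap each other. Over 32817 promoter windows of 250 bases searched on both strands, TGACGTCA was present in 1.55%, TATAAA in 12.4% and TGANTCA, the motif of AP-1 factors, in 6.75%. No motif was found in the windows of Tgfa, Egf, Egfr and Erbb2. Such matches describe letters and do not show that a factor binds.

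**Figure D1:**
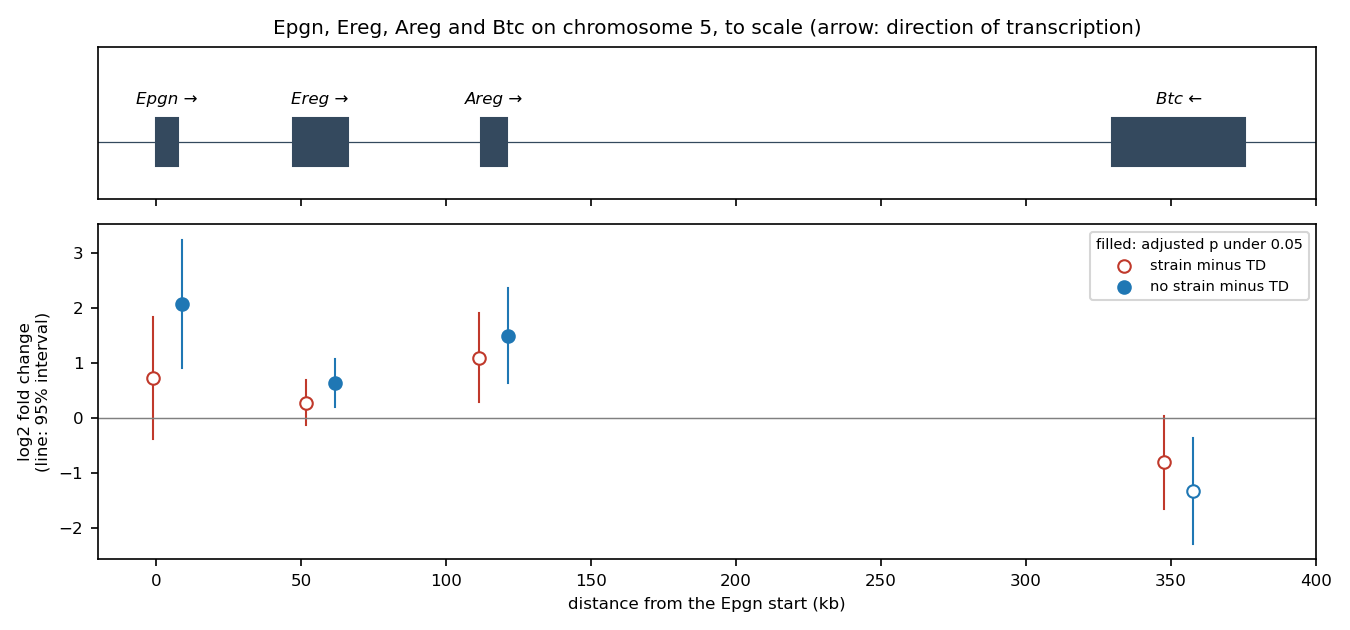
The 4 EGF family genes of the chromosome 5 stretch drawn to scale by their distance in kb from the start of Epgn, with arrows for the direction of transcription, above the log2 fold change of each in the strain and no-strain groups against TD (lines, 95% interval; filled points, adjusted p under 0.05). Epgn, Ereg and Areg have positive fold changes in both patch groups and Btc negative ones.

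Receptor transcripts were the most abundant members per length in film-dressed wounds. Levels of different genes were compared as read counts scaled to a common library total (CPM) per kilobase of exon, on TMM-scaled totals, and all errors are SD over the 5 TD, 4 strain and 3 no-strain libraries. In TD, Erbb2 stood at 13.6 ± 1.25 and Egfr at 12.3 ± 0.819 CPM per kb, with overlapping libraries. Every ligand lay lower: Tgfa at 3.81 ± 0.798, Hbegf, Epgn, Btc, Ereg and Areg from 3.17 down to 1.94, and Nrg1 and Egf at 0.683 and 0.673. The highest TD library of Tgfa did not reach the lowest of Egfr, and neither Nrg1 nor Egf reached the lowest of Areg. Within the middle group of ligands, and between Nrg1 and Egf, neighbouring ranges overlapped.

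The order differed under the patches. Without strain, Egfr was at 13.5 ± 0.630 CPM per kb, followed by Epgn at 10.1 ± 6.02, Erbb2 at 9.49 ± 2.07 and Hbegf at 9.29 ± 3.33, each overlapping its neighbour. Egf was last at 0.398 ± 0.0313, its libraries all lower than those of Btc at 0.954 ± 0.487. In the strain group Egfr led at 13.2 ± 1.91 and Egf was last at 0.376, and only Nrg1 and Egf, the last in the order, did not overlap as neighbours.

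Summed over the 8 ligands, transcript abundance was 22.8, 15.7, 17.2, 18.8 and 11.9 CPM per kb in TD replicates 1 to 5, 35.5, 32.0, 18.1 and 15.4 in strain replicates 1 to 4, and 44.7, 23.7 and 43.8 in no-strain replicates 1 to 3. Strain replicates 1 and 2 were higher than every TD library, whereas strain replicates 3 and 4 lay within the TD range. Every no-strain library was higher than every TD library. As a share of that sum, Btc made up 14.2% ± 6.00 in TD, 6.35% ± 4.29 under strain and 3.08% ± 2.60 without strain. Egf accounted for 3.93% ± 0.991 in TD, 1.68% ± 0.665 under strain and 1.13% ± 0.338 without strain. Epgn went the other way, from 13.1% ± 5.69 to 18.2% ± 9.44 and 25.1% ± 9.80 in the same order of groups. Sums and shares of transcripts do not measure ligand protein. In whole biopsies, fewer cells of a type and less RNA per cell cannot be told apart.

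**Figure D2:**
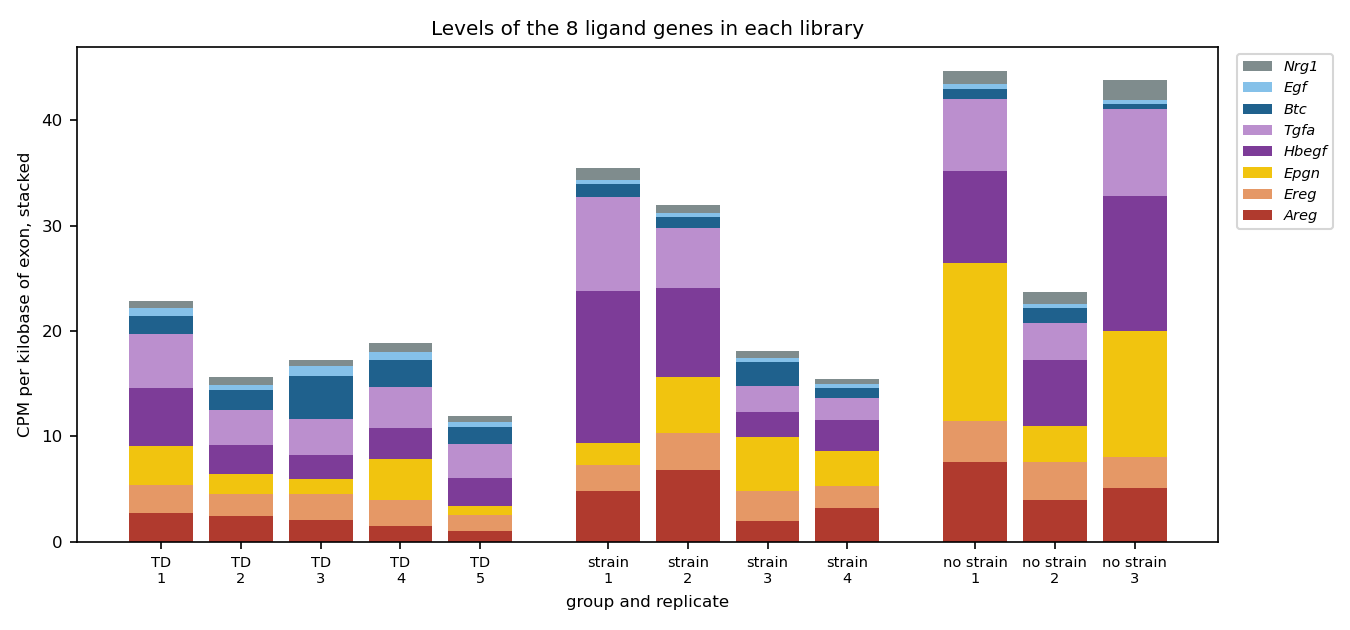
Transcript level of each of the 8 ligands in CPM per kilobase of exon, stacked for each of the 12 libraries in TD, strain and no strain. The totals run from 11.9 to 22.8 in TD, from 15.4 to 35.5 in strain and from 23.7 to 44.7 in no strain, and the mean shares of Btc and Egf are highest in TD.

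Against film dressing, the ligands Areg, Epgn and Hbegf were higher in patched wounds, and the ligands Btc and Egf and the receptor Erbb2 were lower. With both patch groups averaged and compared with TD by edgeR's quasi-likelihood test, 6 of 10 members passed an adjusted p of 0.05, against 24.4% of all 18618 genes tested. Areg, Epgn and Hbegf were higher (12.4% of all genes were called higher) and Btc, Egf and Erbb2 lower (12.1% were called lower). The comparisons that follow share the TD libraries, so their calls are not independent of each other. Under the patch without strain, 6 members passed against TD (17.8% of all genes): Areg, Ereg, Epgn and Nrg1 were higher (9.35% of all genes) and Egf and Erbb2 lower (8.4%). Under strain, only Egf passed against TD, and it was lower (12.6% of all genes were called, 6.2% as higher and 6.41% as lower). A difference between these counts is no test of strain against no strain, which is given separately. Each sample title ends in L or R, which the labels do not explain, and 1 of 5 TD, 3 of 4 strain and 2 of 3 no-strain libraries end in L. With the letter as a covariate, 0, 2 and 1 members passed for strain, no strain and both patches against TD, so part of the calls cannot be told apart from the letter. Ranges of the no-strain and TD libraries lay fully apart for 7 of 10 members, as for 26.7% of all genes. Those of strain and TD lay apart for 2 of 10 members, against 14.6% of all genes. The median absolute log2 fold change of the members was 0.70 for the mean of both patches, 0.91 for no strain and 0.57 for strain against TD, against 0.20, 0.23 and 0.19 over all genes tested.

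**Figure D3:**
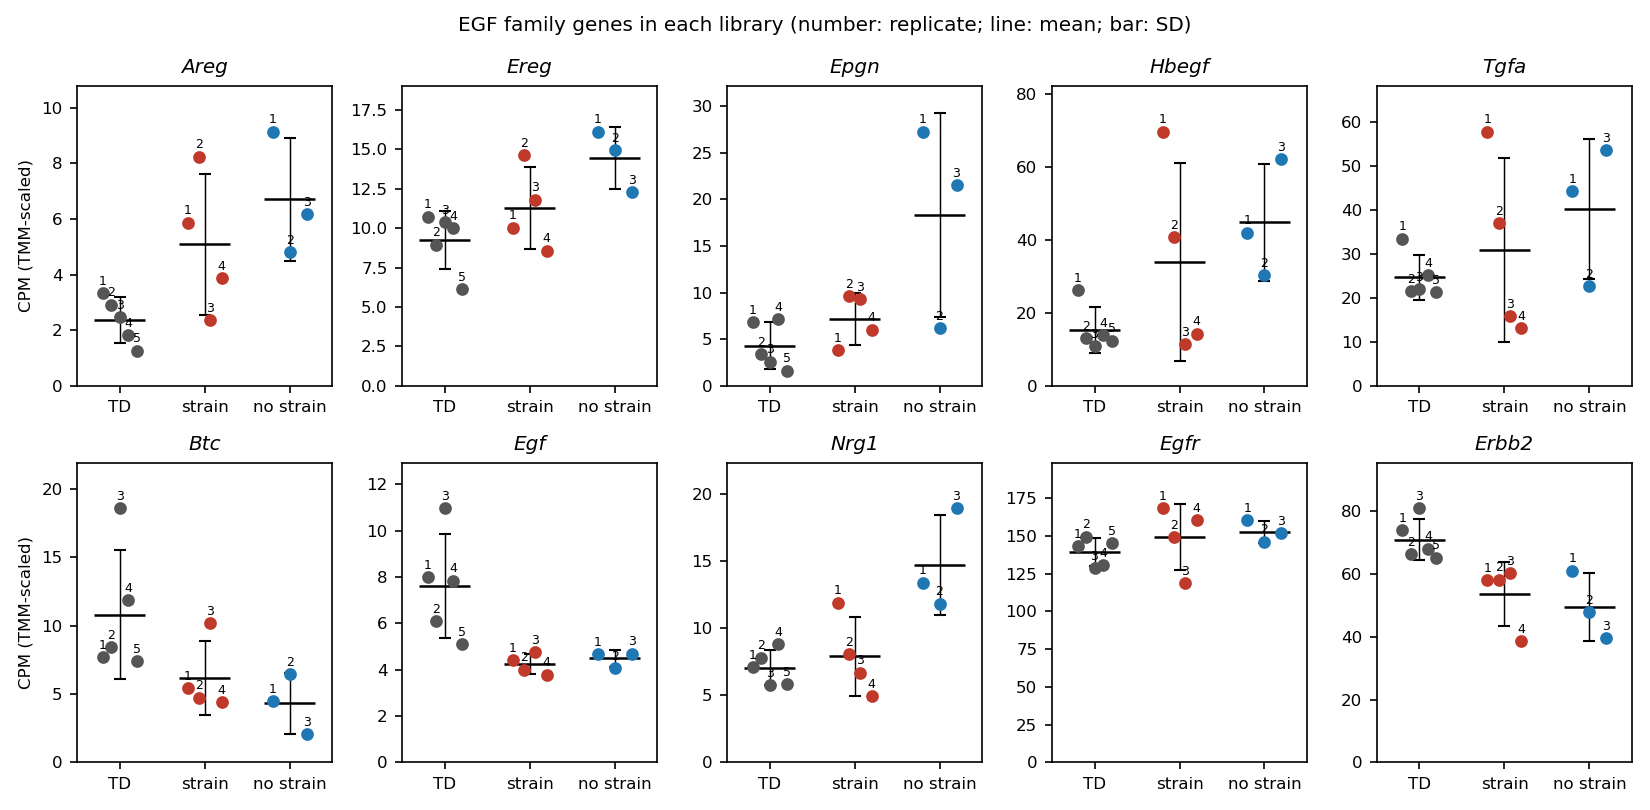
CPM of each of the 10 members in every library (points numbered by replicate, linear axes that start at 0) with the mean (line) and SD (bar) of each group. Strain replicates 1 and 2 are high and replicates 3 and 4 low for Hbegf and Tgfa, and the TD libraries of Egf and Erbb2 lie apart from all patched libraries.

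Amphiregulin, an EGFR ligand made by keratinocytes and by immune cells, was higher in patched wounds than under film alone. Areg was at 3.33, 2.92, 2.47, 1.82 and 1.27 CPM in TD replicates 1 to 5, at 5.86, 8.24, 2.37 and 3.88 in strain replicates 1 to 4, and at 9.14, 4.81 and 6.18 in no-strain replicates 1 to 3. All no-strain libraries exceeded all TD libraries, whereas strain replicate 3 lay inside the TD range. It rose by a log2 fold change of 1.50 (SE 0.391, adjusted p = 0.0246) for no strain against TD and 1.30 (SE 0.334, adjusted p = 0.0172) for both patches. For strain against TD it was 1.10 (SE 0.370, adjusted p = 0.0724), which did not pass. The call for both patches held in all 12 fits that left out 1 library (adjusted p up to 0.0464) but was lost with the title letter as a covariate (adjusted p = 0.0643). The call for no strain was lost without TD replicate 4, no-strain replicate 1 or no-strain replicate 3, at adjusted p up to 0.101, and strain passed without strain replicate 3 (adjusted p = 0.0283).

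Epigen, a low-affinity ligand of EGFR, had the largest fold change of the members for no strain against TD, and a wide spread. Epgn was at 6.83, 3.41, 2.59, 7.15 and 1.62 CPM in TD, at 3.83, 9.63, 9.27 and 6.04 under strain, and at 27.2, 6.18 and 21.5 without strain. No-strain replicates 1 and 3 were the highest of the 12 libraries, whereas no-strain replicate 2 lay inside the TD range. Against TD, the log2 fold change was 2.08 (SE 0.532, adjusted p = 0.0230) for no strain, 0.74 (SE 0.506, adjusted p = 0.362) for strain and 1.41 (SE 0.458, adjusted p = 0.0446) for both patches. The no-strain call was lost without TD replicate 2, TD replicate 3, no-strain replicate 1 or no-strain replicate 3, at adjusted p up to 0.0966. The call for both patches held in 4 of 12 such fits, with adjusted p from 0.0195 to 0.104, and was lost without TD replicates 2, 3 or 5, strain replicates 2, 3 or 4, or no-strain replicates 1 or 3. It passed in 6 of 22 alternatives in all, and was also lost with scaling by library totals, no filter, the title letter (adjusted p = 0.0764) and limma-voom (adjusted p = 0.0673). Without the filter the no-strain call was lost too.

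Epiregulin, which binds EGFR and ERBB4, was higher without strain, by less than Areg and Epgn. Ereg was at 10.7, 8.96, 10.4, 10.0 and 6.14 CPM in TD, at 10.0, 14.6, 11.8 and 8.58 under strain, and at 16.1, 14.9 and 12.3 without strain. The no-strain libraries all lay over the TD range, and the strain libraries overlapped both groups. Its log2 fold change for no strain against TD was 0.64 (SE 0.199, adjusted p = 0.0447), and for both patches 0.46 (SE 0.164, adjusted p = 0.0586). The no-strain call held in only 2 of the 12 fits that left out 1 library, those without strain replicate 2 or strain replicate 4, and adjusted p reached 0.148. Scaling by library totals alone and the title letter (adjusted p = 0.0810) also ended it. An antisense gene, Gm19610, overlaps 141 exon bases of Ereg, and without strand information its reads cannot be told apart from those of Ereg.

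Heparin-binding EGF-like growth factor, a ligand of EGFR and ERBB4, split the strain group. Its gene lies on chromosome 18 at 36504927 to 36515805. Hbegf was at 26.4, 13.1, 10.8, 13.9 and 12.5 CPM in TD, at 69.8, 40.8, 11.5 and 14.3 under strain, and at 42.0, 30.5 and 62.3 without strain. All no-strain libraries and strain replicates 1 and 2 exceeded every TD library, whereas strain replicates 3 and 4 lay within the TD range. For Hbegf the log2 fold change against TD was 1.35 (SE 0.447, adjusted p = 0.0474) for both patches, 1.55 (SE 0.522, adjusted p = 0.0612) for no strain and 1.15 (SE 0.491, adjusted p = 0.143) for strain. The call for both patches held in 4 of 12 fits that left out 1 library, with adjusted p from 0.0204 to 0.109. It was lost with scaling by library totals, no filter, the title letter (adjusted p = 0.183) and limma-voom (adjusted p = 0.0611), and without TD replicates 2, 3, 4 or 5, strain replicates 1 or 2, or no-strain replicates 1 or 3. Without TD replicate 1, no strain against TD passed (as it did without strain replicate 1, 3 or 4), with an adjusted p of 0.0318 at the lowest.

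Transforming growth factor alpha, the EGFR ligand long linked to keratinocyte migration, followed the same division of the strain group. It passed in no comparison of the main fit. For both patches against TD it passed in 1 of 22 alternatives, and in 0 of the 12 that left out 1 library. Tgfa was at 33.6, 21.7, 22.0, 25.2 and 21.3 CPM in TD, at 57.9, 37.0, 15.8 and 13.2 under strain, and at 44.4, 22.7 and 53.6 without strain. Strain replicates 3 and 4 were the lowest of all 12 libraries and strain replicate 1 the highest. Its log2 fold change was 0.70 (SE 0.432, adjusted p = 0.286) for no strain against TD and 0.32 (SE 0.403, adjusted p = 0.638) for strain against TD.

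Neuregulin 1, which signals through ERBB3 and ERBB4, was higher without strain than in TD. Nrg1 was at 7.12, 7.81, 5.74, 8.84 and 5.83 CPM in TD, at 11.9, 8.06, 6.70 and 4.94 under strain, and at 13.4, 11.8 and 19.0 without strain. The no-strain libraries lay over the TD range, and the strain libraries overlapped it. Nrg1 had a log2 fold change of 1.06 (SE 0.256, adjusted p = 0.0180) for no strain and of 0.16 (SE 0.242, adjusted p = 0.704) for strain, both against TD. The no-strain call was lost without no-strain replicate 3 (adjusted p = 0.0855) and held in the other 11 fits. With the title letter as a covariate the adjusted p was 0.0535. The lincRNA Gm26578 on the other strand overlaps 482 exon bases of Nrg1.

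Betacellulin, a ligand of EGFR and ERBB4, was lower in patched wounds. Btc was at 7.69, 8.42, 18.6, 11.9 and 7.41 CPM in TD, at 5.42, 4.73, 10.2 and 4.41 under strain, and at 4.46, 6.44 and 2.04 without strain. All no-strain libraries and strain replicates 1, 2 and 4 lay under the TD range, and strain replicate 3 lay within it. For both patches the log2 fold change was -1.06 (SE 0.332, adjusted p = 0.0383), for no strain -1.32 (SE 0.438, adjusted p = 0.0578) and for strain -0.80 (SE 0.385, adjusted p = 0.192). The call for both patches held in 4 of 12 fits that left out 1 library, with adjusted p from 0.0162 to 0.110, and was lost without TD replicates 2, 3 or 4, strain replicates 1, 2 or 4, or no-strain replicates 1 or 3. No filter and the title letter (adjusted p = 0.173) ended it too. No strain against TD passed without strain replicate 3 or no-strain replicate 2 (adjusted p down to 0.0417).

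Egf, the ligand that gave the family its name, was lower in every patched library than in any film-dressed one. It was at 7.98, 6.08, 11.0, 7.83 and 5.09 CPM in TD, at 4.42, 4.01, 4.75 and 3.79 under strain, and at 4.68, 4.08 and 4.69 without strain. The patch groups differed from each other by less than their spread, at 4.24 ± 0.430 and 4.48 ± 0.353 CPM, against 7.59 ± 2.24 in TD. Egf fell, with a log2 fold change of -0.84 (SE 0.197, adjusted p = 0.0217) for strain, -0.76 (SE 0.216, adjusted p = 0.0334) for no strain and -0.80 (SE 0.169, adjusted p = 0.00697) for both patches. The call for both patches held in all 12 fits that left out 1 library. The strain call was lost without strain replicate 2 (adjusted p = 0.0622), and the no-strain call without TD replicates 1 or 4 or any of the no-strain libraries (adjusted p up to 0.0903). The title letter ended the strain (adjusted p = 0.0707) and no-strain (adjusted p = 0.0736) calls, and so did limma-voom (adjusted p = 0.0561 and 0.0640), while a fit of only the groups compared ended the no-strain call. Antisense genes overlap 607 (Gm42697) and 500 (6330410L21Rik) of the 11275 exon bases of Egf.

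**Figure D4:**
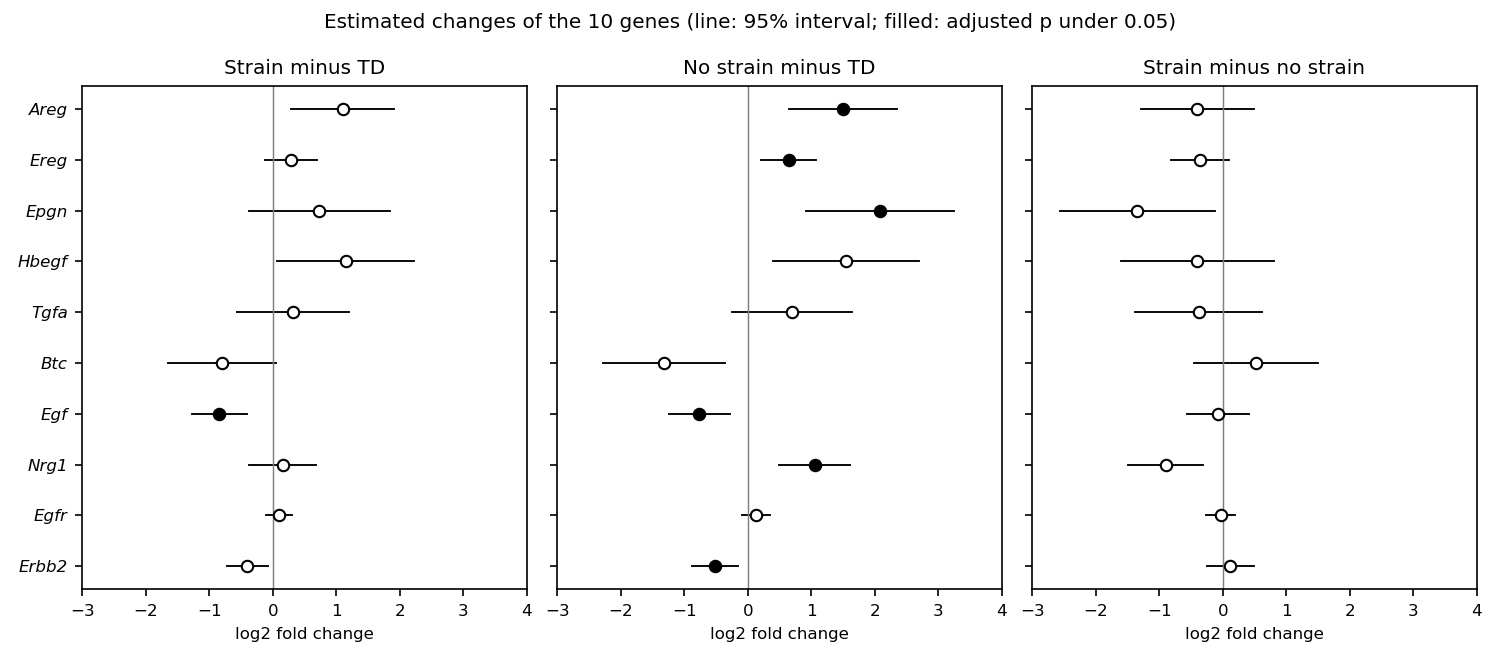
Log2 fold change of the 10 members with 95% intervals from the edgeR fit, for strain against TD, no strain against TD and strain against no strain. Filled points passed an adjusted p of 0.05, and no point is filled for strain against no strain.

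The receptors differed from each other. Egfr was at 143, 149, 129, 131 and 145 CPM in TD, at 168, 149, 119 and 160 under strain, and at 160, 146 and 152 without strain, with overlapping groups. Its log2 fold change was 0.13 for no strain against TD (95% interval -0.09 to 0.35) and 0.10 for strain against TD (95% interval -0.11 to 0.30), and neither passed (adjusted p = 0.397 and 0.520). Erbb2 was at 73.8, 66.3, 80.8, 68.0 and 65.1 CPM in TD, at 58.0, 58.1, 60.1 and 38.5 under strain, and at 61.0, 47.8 and 39.6 without strain. Every patched library of Erbb2 lay under every TD library, as it did for Egf. The libraries of both patch groups lay apart from TD for these 2 members of 10, against 11.0% of all genes tested. For Erbb2 it was -0.46 (SE 0.128, adjusted p = 0.0246) for both patches, -0.52 (SE 0.163, adjusted p = 0.0483) for no strain and -0.40 (SE 0.148, adjusted p = 0.0982) for strain. The call for both patches was lost without TD replicate 1 or TD replicate 3 (adjusted p up to 0.0631). The no-strain call was near the threshold and held only without strain replicate 3, strain replicate 4 or no-strain replicate 1, with adjusted p from 0.0198 to 0.182. The title letter ended both calls (adjusted p = 0.0960 for both patches and 0.104 for no strain), and no filter ended the no-strain call.

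Of the ErbB receptors and neuregulins outside the 10, Erbb3, the kinase-impaired partner of ERBB2, was at 71.3 ± 8.16 CPM in TD, 65.0 ± 21.3 under strain and 52.5 ± 16.9 without strain, and its log2 fold change for both patches was -0.29 (SE 0.204, adjusted p = 0.332). Nrg2 and Nrg4 did not pass either (adjusted p = 0.663 and 0.320). Erbb4 had at most 7 counts and Nrg3 at most 1 count in any library, so they were not tested. At this depth, transcripts of the receptor that Nrg1, Hbegf, Btc and Ereg can share, ERBB4, were near the detection floor of 3 counts, which is at most 0.147 CPM and covers counting error only.

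Strain was compared with no strain to ask what the imposed strain added to wearing a patch. In edgeR no member of the 10 passed, and neither did any of the 18618 genes (0%). The smallest adjusted p of a member was 0.872, and no member had groups that did not overlap (5.62% of all genes did). At an unadjusted p of 0.05, 2 of 10 members passed, Nrg1 and Epgn, against 5.61% of all genes. DESeq2 called 0 members and 29 genes in this comparison, and limma-voom 0 members. For Nrg1 the log2 fold change was -0.90 (SE 0.271, unadjusted p = 0.00639, adjusted p = 0.872, 95% interval -1.49 to -0.31). That of Epgn was -1.34 (SE 0.559, unadjusted p = 0.0344, adjusted p = 0.872). For the other ligands it was -0.40 for Areg, -0.36 for Ereg, -0.40 for Hbegf, -0.38 for Tgfa, 0.52 for Btc and -0.08 for Egf, each with an adjusted p of at least 0.881. For Egfr the 95% interval ran from -0.27 to 0.20. A p that misses the threshold does not show that the patches acted alike.

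The strain libraries themselves fell into a high and a low pair for several members. Replicates 1 and 2 carry the title numbers 7 and 10, and replicates 3 and 4 the numbers 14 and 15. What the title numbers stand for is not stated. The comparisons were repeated without each pair, but the pairs were chosen from the members' own values. The direction in which Hbegf, Tgfa, Areg and Nrg1 moved was thus fixed by that choice, and the values are given with no test. For strain against TD, the log2 fold change of Hbegf was 1.83 without replicates 3 and 4 and -0.25 without replicates 1 and 2. That of Tgfa was 0.92 and -0.77, that of Areg 1.56 and 0.39, and that of Nrg1 0.48 and -0.28 in the same order. Egf, the member called for strain against TD, was at -0.86 and -0.83, and with fewer libraries it passed the threshold in neither fit. For strain against no strain, Hbegf was at 0.29 without replicates 3 and 4 and -1.80 without replicates 1 and 2. Tgfa was at 0.23 and -1.47, Areg at 0.07 and -1.10, and Nrg1 at -0.57 and -1.33. TD libraries carry title numbers from 1 to 6 and patched libraries from 7 to 15. Any order the numbers reflect and the presence of a patch therefore cannot be told apart. Patched and TD libraries could not be compared within a shared range of numbers.

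Markers of other cell types varied between the same libraries. The summed CPM of 12 neutrophil genes was 1739, 656, 498, 590 and 609 in TD, 9084, 6263, 995 and 1685 under strain, and 5553, 2471 and 4850 without strain. In this sum, strain replicates 1 and 2 were thus high and replicates 3 and 4 low, as they were for Hbegf and Tgfa. TD replicate 1 was the highest of its group for both Hbegf and the neutrophil genes. The sum was led by S100a8 and S100a9, which reached 3634 and 4761 CPM under strain. In the mean of log2 CPM, where each gene weighs alike, strain replicates 1 to 4 were at 5.30, 5.01, 4.49 and 4.36. All of these lay over the TD range of 2.62 to 3.45. All 12 neutrophil genes were called higher in both patches against TD. In TD, 2 of them were at 3 counts or fewer in every library, and none was at 0 throughout. The summed CPM of 10 wound keratinocyte genes, such as Krt6a and Krt16, was 4338, 2903, 2787, 3275 and 3128 in TD, 11900, 7616, 3842 and 3883 under strain, and 11929, 3779 and 6019 without strain, with 5 of 10 genes called higher for both patches and none lower. No-strain replicates 1 and 3, the high libraries of Epgn, were also the high no-strain libraries of both marker sums. The strain group went the other way, as replicate 1 had its highest value of both sums and its lowest Epgn (3.83 CPM). By the neutrophil mean of log2 CPM, however, no-strain replicate 1 was the lowest of its group, at 4.97. No-strain replicates 2 and 3 were at 5.20 and 5.96. The part of these lists in the values of Areg, Epgn, Hbegf, Tgfa and Nrg1 was not tested.

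Beside the members that were lower under the patches, summed transcripts of muscle and adipocyte markers moved as well. The summed CPM of 15 skeletal muscle genes was 12396, 11087, 17758, 13409 and 7166 in TD, 3373, 4139, 6417 and 4297 under strain, and 6965, 4929 and 10639 without strain, and 9 of the 14 tested were called lower for both patches. The adipocyte sum was 3472, 2759, 4573, 3681 and 2403 in TD, 1673, 1575, 2421 and 1722 under strain, and 1917, 1438 and 1427 without strain, with 9 of 10 genes called lower. TD replicate 3 had the highest level of Egf, Btc and Erbb2 and the highest sum of both lists. No-strain replicate 3 had a muscle sum inside the TD range and the lowest adipocyte sum of all libraries. Its Btc was the lowest of all libraries (2.04 CPM), its Erbb2 the lowest of its group (39.6 CPM) and its Egf, at 4.69 CPM, under every TD library. With the mean of the muscle list as a covariate, the log2 fold change of Egf against TD was -0.05 for strain (adjusted p = 0.966) and -0.33 for no strain (adjusted p = 0.348). In that fit Epgn was the only member past the threshold for no strain, at 3.04 (adjusted p = 0.0226). Of 12 basal keratinocyte genes, 5 were called lower for both patches and none higher. Their summed CPM was 7194 ± 833 in TD, 8466 ± 2706 under strain and 6775 ± 1948 without strain, so the sum was not lower under strain. The covariate was instead the mean of their log2 CPM, in which each gene weighs alike. With that mean as a covariate no member passed in any comparison. In that fit the log2 fold change of Erbb2 for no strain was -0.08 (adjusted p = 0.873), whereas that of Hbegf was 2.08 (adjusted p = 0.308). Both lists had genes called lower in patched wounds, so in these fits the covariate and the dressing cannot be fully told apart.

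**Figure D5:**
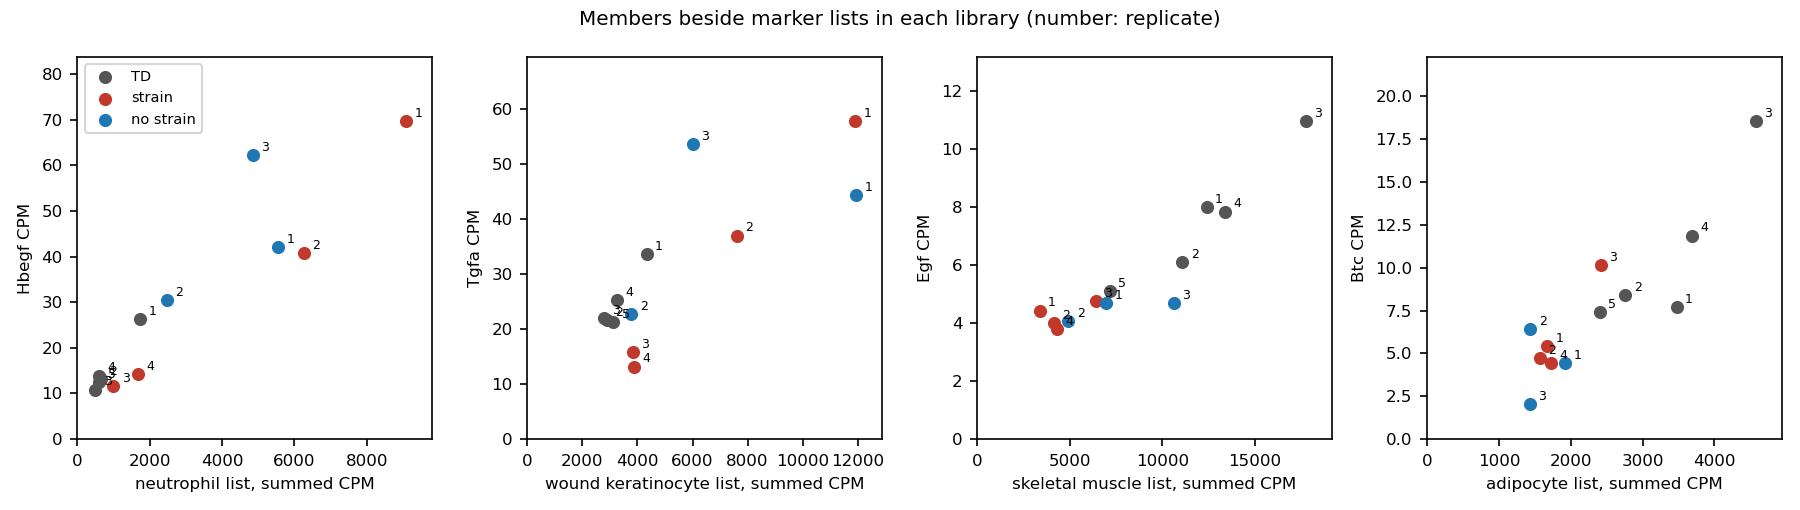
CPM of Hbegf against the summed CPM of the neutrophil list, of Tgfa against the wound keratinocyte list, of Egf against the skeletal muscle list and of Btc against the adipocyte list, 1 point per library, coloured by group and numbered by replicate. Strain replicate 1 lies at the upper right for Hbegf and TD replicate 3 at the upper right for Egf and Btc. For Hbegf, no-strain replicates 1 and 3 lie higher than strain replicate 2 at smaller neutrophil sums. The points describe libraries that share composition and depth, and no test was made on them.

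For the other lists, the counts called for both patches against TD were 8 of 10 endothelial genes higher, 5 higher and 1 lower of 10 T cell and innate lymphoid genes, 5 of 10 Schwann cell and nerve genes lower, 1 of 12 macrophage genes higher, 1 of 10 mast cell and basophil genes higher, 1 higher and 1 lower of 12 genes of differentiated epidermis, 1 of 8 sebaceous gland genes lower and 0 of 10 fibroblast genes. No marker of any list was at 0 throughout a group, including those of basal keratinocytes and fibroblasts that the dorsal wound label implies.

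Among the genes that act around these receptors, a few moved between patched and film-dressed wounds, and none between strain and no strain. Of 11 genes for ligand-shedding proteases and their regulators, 1 was called higher and 1 lower for both patches (list median 0.05, against 0.01 for all genes). Adam17, the main sheddase of Areg, Tgfa and Hbegf, was at 120 ± 11.4 CPM in TD, 160 ± 28.4 under strain and 154 ± 6.79 without strain (log2 fold change 0.39, SE 0.0959, adjusted p = 0.0143). Rhbdf1, which encodes iRhom1, a carrier of ADAM17, was at 97.9 ± 3.34, 83.1 ± 5.15 and 77.5 ± 4.83 CPM in the same order (log2 fold change -0.29, SE 0.0496, adjusted p = 0.00284).

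Of 20 receptor attenuators and feedback inhibitors, 2 were called higher and 2 lower for both patches (list median 0.02). Ptpn1, a phosphatase that acts on EGFR, had a log2 fold change of 0.54 (adjusted p = 0.00265), and Rnf41, a ubiquitin ligase of ERBB3, 0.18 (adjusted p = 0.0432). The feedback inhibitors Spry1 and Socs5 had -0.29 (adjusted p = 0.0151) and -0.23 (adjusted p = 0.0215). Of 21 adaptors and relay genes of the RAS and MAP kinase route, 4 were called higher and 2 lower (list median 0.03), with log2 fold changes of 0.17 for Braf, 0.26 for Map2k1, 0.16 for Nras, -0.16 for Ptpn11 and -0.18 for Araf. These shares, 2 of 11, 4 of 20 and 6 of 21, stand beside the 24.4% called over all genes.

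Of 14 genes known to respond to ERK signalling, 6 were called higher and 2 lower for both patches, beside 12.4% and 12.1% of all genes, with a list median of 0.38. Junb, an AP-1 subunit, was at 134 ± 4.51 CPM in TD, 173 ± 34.0 under strain and 235 ± 23.9 without strain (log2 fold change 0.58, adjusted p = 0.00291). Ier3, an early response gene, had a log2 fold change of 0.84 (adjusted p = 0.00992) and Phlda1 0.59 (adjusted p = 0.0175). Etv5, a transcription factor, and Emp1, a membrane protein, were lower, at -0.42 (adjusted p = 0.0228) and -0.28 (adjusted p = 0.0463). For no strain against TD, 6 of the 14 were called higher and none lower, beside 9.35% and 8.4% of all genes. For strain against TD, 0 were called higher and 1 lower, beside 6.2% and 6.41%. For strain against no strain, 0 of the 14 were called, so these counts do not show that the patches differed. These genes also respond to many other signals, and the lists were chosen with earlier results of these data known.

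The genes whose pattern over the 12 libraries lay closest to each called member were found by the root mean square difference of mean-centred log2 CPM, which is 0 for identical patterns. For Areg, whose own root mean square deviation was 0.819, they were Nfkbiz at 0.323, Gm13192 at 0.339 and Nfkbia at 0.355. Nfkbiz and Nfkbia encode members of the IkappaB family. For Hbegf (0.949) they were Elf3 at 0.382, an epithelial transcription factor, Il1f9 at 0.385, which encodes interleukin 36 gamma, and Gk at 0.385. For Nrg1 (0.548) they were Prdm1 at 0.287, Htr1b at 0.289 and Ptges at 0.297. Epgn (1.10) had the largest deviation of its own and also the largest distances, with Gm2245 nearest at 0.604, Klra17 at 0.654 and Serpinb1b at 0.679. For Ereg (0.370) they were Prkcq at 0.198, Il15ra at 0.205 and Rhov at 0.218.

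For Egf (0.450) the nearest were Gys1 at 0.118, the glycogen synthase of muscle, Pnpla2 at 0.130, a triglyceride lipase, and Fbxo32 at 0.142, a ubiquitin ligase subunit of muscle. For Btc (0.771) they were Sectm1b at 0.230, Mboat2 at 0.235 and Ccdc113 at 0.235, and for Erbb2 (0.316) Patj at 0.0953, Plekha7 at 0.0982, both of cell junctions, and Tiam1 at 0.110. Within the family, Egf and Erbb2 were 0.291 apart, Tgfa and Nrg1 0.402, Hbegf and Tgfa 0.479 and Areg and Hbegf 0.532. These distances describe the same 12 libraries, which share depth and tissue composition, and carry no test.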

How the data were processed

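Poly(A) RNA was sequenced from 12 wounds after oligo(dT) enrichment, by a protocol that names no strand marking, per the labels' protocols. The deposited values are raw read counts per Ensembl gene, 1 column per library, per the file headers. Per the submitters' processing notes, which give no order or role, the authors used bcl2fastq 2.17, FastQC, cutadapt, STAR, featureCounts and DESeq2 with GRCm38. The annotation release, strand setting and treatment of reads matching several genes are not given in the sources used here. Total counts ran from 20354677 to 25059371 per library. Counts of the 19 replicate pairs differed by 9.53 to 75.0 times sampling noise (chi-square divided by its degrees of freedom), so none was treated as a duplicate.

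Symbols, lengths and exon overlaps came from GENCODE M21 (GRCm38). Genes were filtered with filterByExpr (minimum count 10, minimum total 15; 18618 of 54232 kept), scaled by TMM and tested in 1 fit of all 12 libraries with edgeR 4.0.16 (robust quasi-likelihood test, R 4.3.3), with Benjamini-Hochberg adjustment over all genes tested and a threshold of 0.05. Standard errors were the fold change divided by the square root of F. CPM used TMM-scaled totals, and log2 CPM a prior count of 2. The fit was tested on simulated counts. Alternatives were DESeq2 1.42.0 and its size factors, limma-voom (limma 3.58.1), library totals alone, no filter, only the groups compared, covariates (title letter, skeletal muscle or basal keratinocyte list mean), leaving out each library and, added after seeing the data, each pair of strain libraries. Members and lists were chosen with earlier results of these data known. All 10 members were named. From each pathway list, the genes past the threshold for both patches with the smallest p were named, at most 3 in each direction, and for each called member its 3 nearest genes.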

Additional observations from a re-analysis of the deposited data

Results flagged for a closer look

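Among 20 values screened (10 members in the TD and strain groups, the groups of at least 4 libraries), 2 had 1 library far from the rest of its group, by the gap to the nearest library as a share of the range. Chance gives about 1 in 20. Hbegf in TD replicate 1 stood at 4.73 log2 CPM, with the next TD library at 3.81. Erbb2 in strain replicate 4 stood at 5.27 log2 CPM, with the nearest strain library at 5.86. TD replicate 1 also had the highest neutrophil marker sum of its group (1739 CPM), and strain replicate 4 the lowest basal keratinocyte sum of its group (5079 CPM). Their part in these values was not tested.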

How the results depend on the processing

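As reported, 0 genes and 0 members were called between the patch groups. Against TD, 2349 genes and 1 member were called for strain, 3305 and 6 for no strain, and 4552 and 6 for both patches. With the basal keratinocyte list as a covariate, 63, 54 and 159 genes and 0, 0 and 0 members were called for strain, no strain and both patches against TD. With the muscle list, these were 1, 966 and 130 genes and 0, 1 and 0 members, and with the title letter 798, 2145 and 2589 genes and 0, 2 and 1 members. DESeq2 called 29 genes for strain against no strain and 2 members for strain against TD, and limma-voom 0 members for strain against TD. Without the filter, 1527 genes passed for strain against TD and 3 members for both patches. Without strain replicates 3 and 4, 2 genes passed for strain against no strain. Without strain replicates 1 and 2, strain against TD gave 266 genes. Both pairs were chosen from the members' own values, so counts of members are not given for these fits and the gene counts are no test.

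Leaving out 1 library gave 882 to 2458 genes and 0 to 2 members for strain, 1505 to 3415 genes and 0 to 7 members for no strain, and 3176 to 4570 genes and 2 to 6 members for both patches, each against TD. The lowest member counts came without no-strain replicate 3 (0 for no strain) and without TD replicate 3 (2 for both patches). Scaling by library totals alone moved the share of called genes that were higher from 52.7% to 38.1% for no strain and from 50.5% to 40.1% for both patches.

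Log2 fold changes that changed sign were mostly small. For strain against no strain they were Egfr at 0.0085 with library totals and 0.011 with the basal covariate, Erbb2 at -0.015 with the basal covariate, Egf at 0.27 with the muscle covariate, and, without strain replicates 3 and 4, Areg at 0.066, Tgfa at 0.23, Egfr at 0.045 and Hbegf at 0.29. Leaving out 1 library gave -0.096 to 0.051 for Egfr (highest without strain replicate 3) and -0.018 to 0.29 for Erbb2 (lowest without no-strain replicate 3). For strain against TD they were Egfr at -0.14 (muscle covariate) and -0.014 (basal covariate) and, without strain replicates 1 and 2, Tgfa at -0.77, Nrg1 at -0.28, Egfr at -0.00099 and Hbegf at -0.25. Leaving out 1 library gave -0.17 to 0.57 for Tgfa and -0.11 to 0.33 for Nrg1, both lowest without strain replicate 1. For no strain against TD, Egfr was at -0.024 with the basal covariate. For both patches, Egfr was at -0.062 (muscle covariate) and -0.019 (basal covariate) and Tgfa at -0.036 without strain replicates 1 and 2. For these sign changes the cause was not tested. No paired analysis was possible because the title numbers of the groups do not overlap and replicate numbers were given in accession order. Depth limits Areg most, with 29 to 203 counts per library.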
